A study of Zea mays with 9 samples.

Results

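A set of 82 genes stood highest in germinating maize seeds of the salt and melatonin group, out of 39301 genes in the deposited table. A gene belongs to the set when its level in NaCl+MT exceeds both its level in NaCl and its level in CK by 0.8 or more, where a level is log2(group mean FPKM + 1), and when each of the 3 NaCl+MT values lies above all 6 others. FPKM counts sequenced fragments relative to the length of the gene and to the size of the library. Both contrasts with NaCl+MT chose the members, so the values of these contrasts are given below as a description and are not tested.

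RNA was sequenced from seeds of Zea mays at the germination stage in 3 groups with 3 biological replicates each. The groups are NaCl+MT (salt and, by the series title, exogenous melatonin), NaCl (salt without melatonin) and CK, the usual label for an untreated control. The labels give neither the maize line, doses and times nor whether melatonin came before or with salt. They hold no group with melatonin and no salt, so the part of melatonin alone is not measured. "Seed" is the only tissue label, and the libraries may mix embryo, seedling axis and endosperm in any proportion.

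Melatonin is an indoleamine that plants make from tryptophan. In germinating maize the embryo axis elongates by cell wall loosening, to which expansins contribute, while its surface layer forms a cuticle of very-long-chain fatty acid derivatives. Class IV homeodomain-leucine zipper factors, called outer cell layer (ocl) genes in maize, are expressed mainly in the epidermis. Inositol phosphate synthase supplies myo-inositol, the precursor of phytate, of cell wall sugars and of galactinol.

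The RefSeq gene table gave a gene name to 5 of the 82 members. These are mips2, expB3, ocl4, HDZIV14_OCL14 and AD1. The other members matched a RefSeq gene known here only by a locus number, at times with a probe or clone name, or, for 37 of the 82, matched none. No function is given for them. Lists of gene names chosen for seeds under salt brought expB3 and both homeobox genes into the text; mips2 came in by its difference, and AD1 was picked after its values were seen.

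mips2 (GRMZM2G004528), which by its name encodes an inositol phosphate synthase, had the largest value among the members of the smaller of its 2 differences, 1.59 from CK beside 2.17 from NaCl. The difference from CK alone was larger in GRMZM2G153096 (2.04), and that from NaCl alone in EF517601.1_FG016 (3.64). Its FPKM was 3.55, 8.49 and 9.78 in NaCl+MT replicates 1 to 3, 0.632, 0.949 and 0.934 in NaCl, and 2.38, 1.73 and 1.16 in CK. The groups did not overlap, and NaCl+MT replicate 1 lay closest to the other libraries. The NaCl+MT mean of 7.27 ± 3.29 FPKM (SD, n = 3) was 8.67-fold that of NaCl and 4.14-fold that of CK.

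expB3 (GRMZM2G474194) encodes a beta-expansin, a protein that loosens grass cell walls. It had 38.5, 67.1 and 60.3 FPKM in NaCl+MT, 12.02, 28.9 and 6.09 in NaCl, and 14.4, 26.6 and 37.9 in CK. NaCl+MT replicate 1 exceeded CK replicate 3 by only 1.02-fold. The mean was 55.3 ± 15.0 FPKM in NaCl+MT, 15.7 ± 11.9 in NaCl and 26.3 ± 11.8 in CK (SD, n = 3 each).

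Of the 12 expansin genes expressed highly enough to be tested, 5 had their highest mean in NaCl+MT, against 32.8% of all tested genes. The rule requires this of the member expB3, which is 1 of the 5. Among the 11 that are no members, NaCl+MT was higher than NaCl in 3 and lower in 1 by limma's moderated test, and 0 passed the threshold between NaCl+MT and CK (5 were called higher with array weights, and 1 without NaCl replicate 1). Of the 3 higher than NaCl, only 1 was called without a filter, without NaCl replicate 3 or without any one NaCl+MT replicate. Over all 22379 tested genes the same test called 11.6% higher and 7.02% lower in NaCl+MT than in NaCl, and 0.679% higher and 0.282% lower in NaCl+MT than in CK (18.6% and 0.961% in either direction). expB4 (GRMZM2G154178) was at 16.8 ± 8.43 FPKM in NaCl+MT, 1.49 ± 0.803 in NaCl and 22.4 ± 9.82 in CK, so its NaCl+MT mean was below that of CK. It and expA4 were picked after their values were seen. The alpha-expansin gene expA4 (GRMZM2G445169) went the other way: it fell to 61.3 ± 13.9 FPKM in NaCl+MT, against 128 ± 36.5 in NaCl (log2 fold change -1.04, SE 0.22, limma adjusted p = 0.00933). Expansins form a multigene family, and how reads shared between copies were counted is not given in the sources used here.

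The wider cell wall list, with expansins, xyloglucan enzymes and cellulose synthases, had 26 tested genes. NaCl+MT was higher than NaCl in 5 of them and lower in 1, with a median log2 fold change of 0.51 against 0.03 over all tested genes. The 5 include the member expB3, which was chosen on that contrast. None of the 26 passed limma's threshold between NaCl+MT and CK, where the median was 0.28 against 0.07 over all tested genes.

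Both homeobox members were close to 0 in NaCl. ocl4 (GRMZM2G123140), known in maize for repressing leaf hairs and for a role in anther development, had 4.03, 2.67 and 3.32 FPKM in NaCl+MT, 0.101, 0.144 and 0.0730 in NaCl, and 1.53, 1.46 and 0.682 in CK. HDZIV14_OCL14 (GRMZM2G145690) had 2.23, 1.22 and 1.94 FPKM in NaCl+MT, 0.04, 0.131 and 0.044 in NaCl, and 0.807, 0.644 and 0.320 in CK. In both genes the 3 groups were fully separated, with NaCl lowest and NaCl+MT highest.

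The contrast of NaCl with CK, which the rule does not use as such, was tested. ocl4 fell in NaCl relative to CK by 0.99 on the log2 scale (SE 0.19, limma adjusted p = 0.00422). HDZIV14_OCL14 differed by -0.56 on that scale (SE 0.18, limma adjusted p = 0.0471), on NaCl and CK values that are all under 1 FPKM. Both genes passed the filter for the test (at least 1 FPKM in at least 3 libraries) only with the NaCl+MT libraries, on which they were chosen. HDZIV14_OCL14 no longer passed the threshold without CK replicate 1 (adjusted p = 0.148) or 2 (0.121), without NaCl replicate 1 (0.0879), 2 (0.0631) or 3 (0.0940), without NaCl+MT replicate 3 (0.0698), after quantile normalisation (0.0509), with array weights (0.0860) and with the replicate block (0.0714); all alternatives together gave adjusted p-values up to 0.148.

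Of the 7 outer cell layer genes in the table all were tested, and 5 are no members. Each of the 7 had its highest mean in NaCl+MT, against 32.8% of all tested genes. The rule requires this of the 2 members, so the other 5 are read apart. The family was singled out because it holds these 2 members, so it was not chosen independently of the data. In HDZIV6_OCL6 (GRMZM2G001289) the NaCl+MT mean of 3.71 FPKM was close to the CK mean of 3.63. Among the 5 others, NaCl+MT was higher than NaCl in 4 by limma (11.6% of all tested genes), and 0 passed the threshold against CK (0.679%). The 4 were 2 without a filter and without NaCl replicate 1 or NaCl+MT replicate 1 or 3, although all 5 stayed above NaCl in each of these. Of the 5, ocl3 (GRMZM2G116658) had the largest log2 difference from CK. It had 10.7, 6.99 and 7.62 FPKM in NaCl+MT, 1.78, 3.88 and 4.12 in NaCl, and 5.82, 4.88 and 3.67 in CK. Here too every NaCl+MT value exceeded the 6 others, as in 5.36% of all tested genes. Its rise over NaCl was 1.18 on the log2 scale (SE 0.25, limma adjusted p = 0.00987), and its difference from CK was 0.70 (SE 0.25, limma adjusted p = 0.185; with array weights 0.59 and adjusted p = 0.0198). ocl1 (GRMZM2G026643), the most abundant of the family, was at 14.1 ± 1.09 FPKM in NaCl+MT, 11.9 ± 2.94 in NaCl and 11.5 ± 2.05 in CK, and passed no threshold. All 5 lay above CK, but after median-ratio scaling, quantile normalisation or array weights, or without CK replicate 3 or NaCl+MT replicate 1 or 3, 4 lay above it and 1 below.

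**Figure D1:**
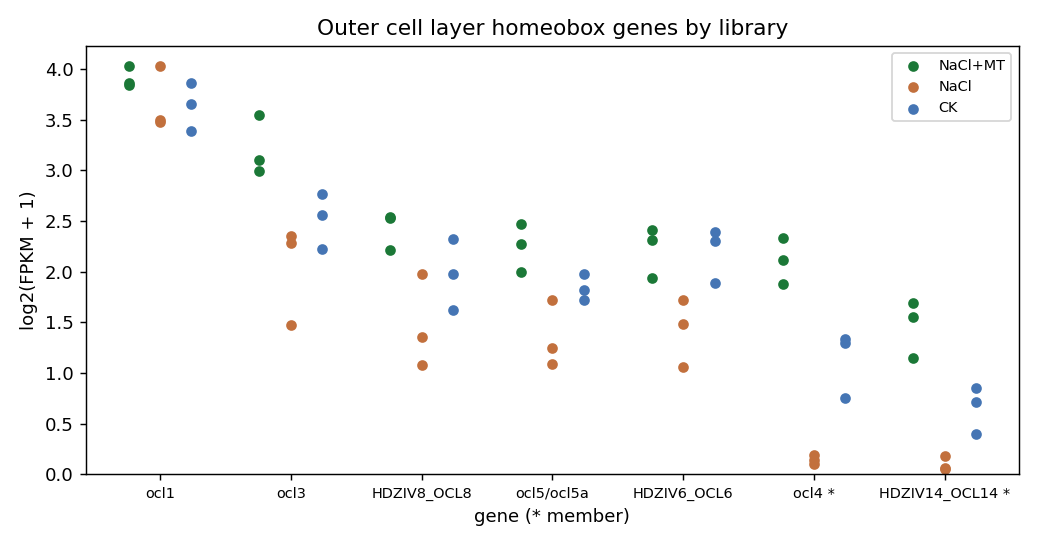
Level of the 7 outer cell layer homeobox genes, as log2(FPKM + 1), with 1 point per library and group colours for NaCl+MT, NaCl and CK. The 2 members, marked with a star, have all NaCl points near 0 and all NaCl+MT points above CK, while the groups of ocl1 overlap.

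The list of homeobox names held 41 tested genes, the outer cell layer genes included. In NaCl+MT 14 were higher and 1 was lower than in NaCl (median log2 fold change 0.35), and in NaCl 4 were higher and 14 lower than in CK (median -0.41). Both members are in each count of 14. They were chosen on the first contrast, and they passed the filter for the test only with the NaCl+MT libraries. Over all tested genes the median log2 fold change was 0.03 in both comparisons, with 11.6% called higher and 7.02% lower in NaCl+MT than in NaCl, and 13.6% called higher and 12.4% lower in NaCl than in CK. Some lists without a member leaned the same way, such as cell cycle (median 0.52 in NaCl+MT over NaCl, -0.59 in NaCl over CK). Others leaned the opposite way, such as defence (-0.56 and 0.80). The only gene of the list called between NaCl+MT and CK was the member ocl4, which was chosen on that contrast. The name patterns also took in lg2, rs2, lgn and the haemoglobin genes Hb2 and GLB1, which are no homeobox genes. Hb2 (GRMZM2G168898) is the 1 gene called lower in NaCl+MT than in NaCl, and with lg2 it is among the 4 higher in NaCl than in CK. The gene rs2 is in each count of 14. In bulk samples such as these, fewer cells of a type and less RNA per cell cannot be told apart.

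AD1 (GRMZM2G167438) bears the name of the adherent1 locus, which in maize encodes a ketoacyl-CoA synthase for cuticular wax. It had 6.89, 3.54 and 4.38 FPKM in NaCl+MT, 1.12, 1.88 and 1.81 in NaCl, and 3.00, 2.27 and 1.83 in CK. The lowest NaCl+MT library lay 1.18-fold above the highest other library, CK replicate 1. NaCl and CK did not differ beyond their spread (log2 fold change -0.37, SE 0.23, limma adjusted p = 0.257).

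**Figure D2:**
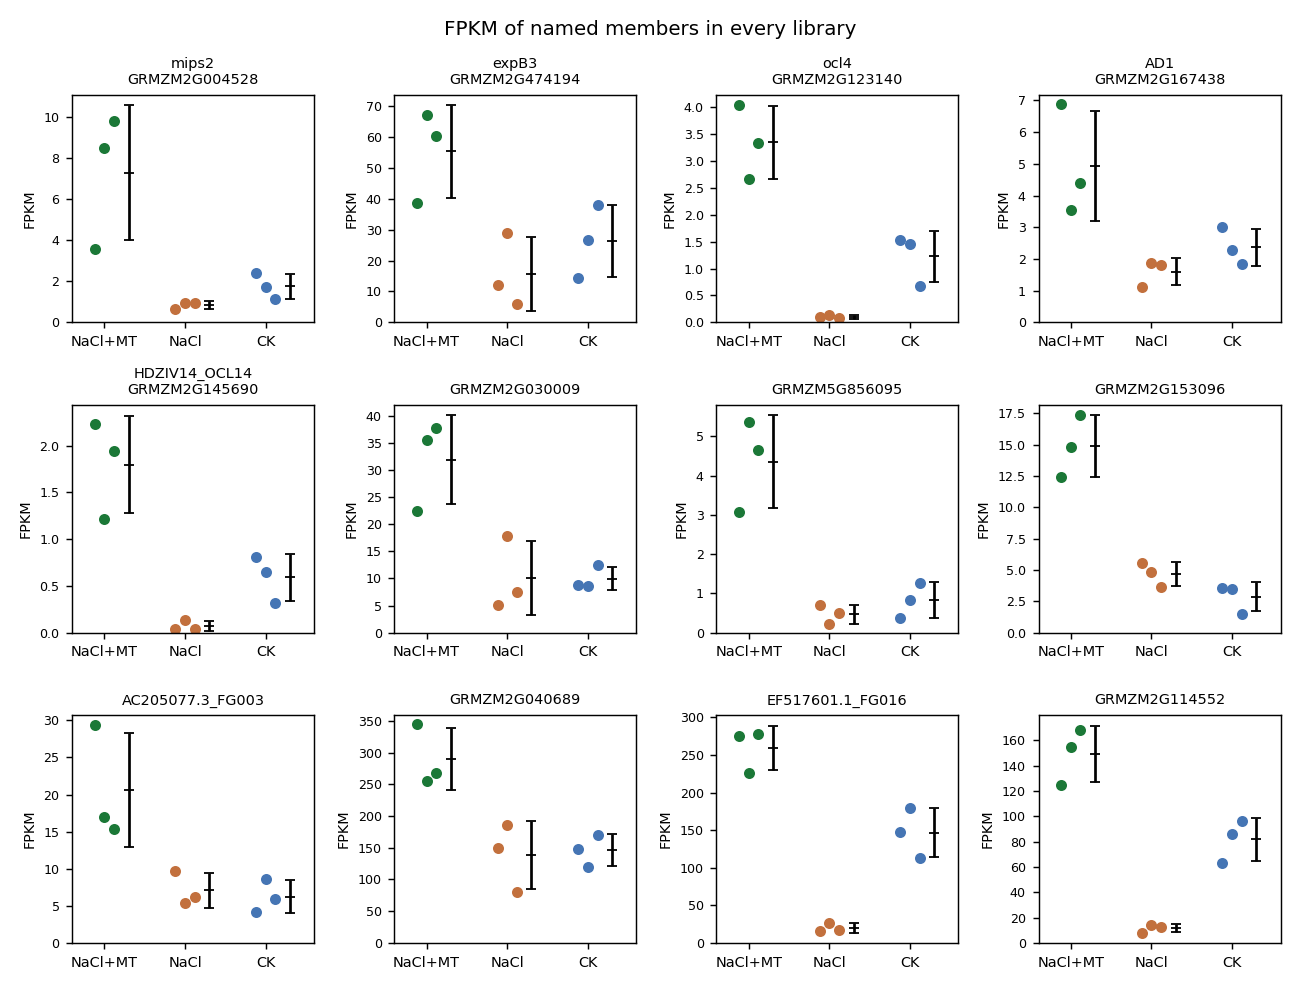
FPKM of 12 members in each library, with groups NaCl+MT, NaCl and CK from left to right, 1 point per replicate and the mean ± SD (n = 3) as a black bar. In every panel the 3 NaCl+MT points lie above the 6 others; in ocl4, HDZIV14_OCL14, EF517601.1_FG016 and GRMZM2G114552 the NaCl points are far below CK as well.

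By the smaller of both differences, mips2 was followed by 4 genes without a gene name. GRMZM2G030009 had 22.5, 35.5 and 37.7 FPKM in NaCl+MT, 5.06, 17.8 and 7.47 in NaCl, and 8.81, 8.67 and 12.4 in CK. GRMZM5G856095 had 3.07, 5.36 and 4.65 in NaCl+MT, 0.697, 0.216 and 0.503 in NaCl, and 0.361, 0.844 and 1.27 in CK. Its lowest NaCl+MT value was 2.42-fold the highest other value, the widest such gap among the members. GRMZM2G153096 had 12.4, 14.8 and 17.4 in NaCl+MT, 5.59, 4.81 and 3.68 in NaCl, and 3.58, 3.45 and 1.52 in CK. AC205077.3_FG003 had 29.4, 17.0 and 15.3 in NaCl+MT, 9.72, 5.37 and 6.16 in NaCl, and 4.19, 8.60 and 5.87 in CK. The 3 NaCl values of GRMZM2G153096 lay above its 3 CK values, while in the other genes NaCl and CK overlapped. None of the 4 passed limma's threshold between them (adjusted p = 0.815, 0.387, 0.0918 and 0.702, in the order given).

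Most members were expressed at a low to middle level. The median NaCl+MT mean of the members was 8.04 FPKM, against 7.78 over all tested genes; their median was 2.67 in NaCl and 3.39 in CK, against 7.62 and 7.22 over all tested genes. In 48 members the NaCl+MT mean was under 10 FPKM, and the 3 most abundant members had means of 290, 259.7 and 149 FPKM. The most abundant, GRMZM2G040689, had 346, 256 and 268 FPKM in NaCl+MT, 149, 185 and 80.3 in NaCl, and 149, 120.1 and 169.5 in CK. GRMZM2G311165, a transcribed pseudogene by RefSeq, had 77.4, 75.0 and 79.5 FPKM in NaCl+MT, 42.0, 45.0 and 43.8 in NaCl, and 41.0, 32.2 and 21.0 in CK. Its NaCl+MT and NaCl values were tight within each group, and the spread of CK was wider. AC197758.3_FG004 had 67.3, 64.3 and 60.4 FPKM in NaCl+MT, 23.4, 47.7 and 23.6 in NaCl, and 11.4, 23.7 and 30.7 in CK.

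The members differed in what NaCl did without melatonin. All 82 passed the filter for the test, 66 of them on the NaCl and CK libraries alone and 16 only with the NaCl+MT libraries. In NaCl, 18 members were lower than in CK (22.0%) and 2 were higher (2.44%) by limma at an adjusted p under 0.05. Over all tested genes 12.4% were called lower and 13.6% higher. Among the 66 members, 12 were lower (18.2%) and 2 higher (3.03%), against 12.2% and 13.8% of the tested genes that pass the filter on those 6 libraries. The other 62 members did not pass the threshold, with log2 fold changes of -1.04 to 0.64. The median log2 fold change of NaCl over CK was -0.32 in the members and 0.03 over all tested genes. CK and NaCl values of a member are both capped by the rule, so these shares are not independent of it.

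Among the 18 members lower in NaCl, the 2 largest falls were those of abundant genes. EF517601.1_FG016 had 275, 226 and 278 FPKM in NaCl+MT, 15.1, 26.9 and 17.7 in NaCl, and 148, 179 and 113 in CK, and its log2 fold change in NaCl over CK was -2.84 (SE 0.23, limma adjusted p = 2.13e-05). GRMZM2G114552 had 125, 155 and 168 FPKM in NaCl+MT, 7.998, 13.9 and 12.9 in NaCl, and 63.4, 85.7 and 96.0 in CK, with a log2 fold change of -2.73 in NaCl over CK (SE 0.22, limma adjusted p = 2.27e-05). In both genes the 3 groups were separated without overlap, and NaCl+MT exceeded CK by 1.77-fold and 1.83-fold.

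GRMZM2G112210 fell to 0.914 ± 0.826 FPKM in NaCl, against 7.89 ± 4.32 in CK (-2.14 on the log2 scale with an SE of 0.40, limma adjusted p = 0.00364). Its mean was 15.8 ± 3.09 in NaCl+MT. GRMZM2G008234 fell to 0.839 ± 0.130 in NaCl, against 4.67 ± 2.23 in CK (-1.54 on the log2 scale with an SE of 0.33, limma adjusted p = 0.00649). Its mean was 11.6 ± 4.96 in NaCl+MT. GRMZM2G043493 had 20.1, 17.1 and 17.2 FPKM in NaCl+MT, 1.11, 8.64 and 1.49 in NaCl, and 8.36, 8.998 and 9.96 in CK, and was lower in NaCl than in CK (log2 fold change -1.45, SE 0.45, limma adjusted p = 0.0369). NaCl replicate 2 of this gene lay within the CK range. Without that library the log2 fold change was -2.14 (limma adjusted p = 5.41e-05), and the limma call was lost without any one of CK replicates 1 to 3 (adjusted p = 0.0835, 0.0813 and 0.0966), NaCl replicates 1 and 3 (0.0972 and 0.110) or NaCl+MT replicates 1 to 3 (0.0526, 0.0514 and 0.0533), without a filter (0.0771) and with array weights (0.0811).

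In the 18 members, NaCl+MT was 3.81-fold to 36.6-fold the NaCl mean but 1.77-fold to 3.04-fold the CK mean. They were grouped by NaCl below CK, so the larger fold over NaCl follows from the grouping. The 36.6-fold value (GRMZM2G126646) rests on a NaCl mean of 0.0727 FPKM. Of all 82 members, 6 had every NaCl library under 0.2 FPKM, 4 of them among the 18. In these 6, ocl4 and HDZIV14_OCL14 included, NaCl+MT libraries ran from 1.22 to 4.03 FPKM and CK libraries from 0.142 to 1.53.

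In 2 members limma called NaCl higher than CK, while NaCl+MT above NaCl is required of every member by the rule. GRMZM2G131715 had 13.8, 13.1 and 12.7 FPKM in NaCl+MT, 5.95, 7.597 and 5.97 in NaCl, and 3.14, 4.17 and 3.10 in CK; NaCl exceeded CK by 0.75 on the log2 scale (SE 0.15, limma adjusted p = 0.00488). GRMZM2G702923 had 6.41, 4.03 and 4.56 in NaCl+MT, 2.77, 1.40 and 1.995 in NaCl, and 1.02, 0.684 and 0.839 in CK (log2 fold change of NaCl over CK 0.70, SE 0.20, limma adjusted p = 0.0287). The call of GRMZM2G702923 was lost without CK replicate 1 (0.0514), 2 (0.0903) or 3 (0.0715), or NaCl replicate 1 (0.0782) or 3 (0.0562), and without a filter (0.0543). All 3 NaCl libraries lay above all CK libraries in 7 members (8.54%), against 22.8% of tested genes, and below all of them in 22 members (26.8%), against 18.1%.

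**Figure D3:**
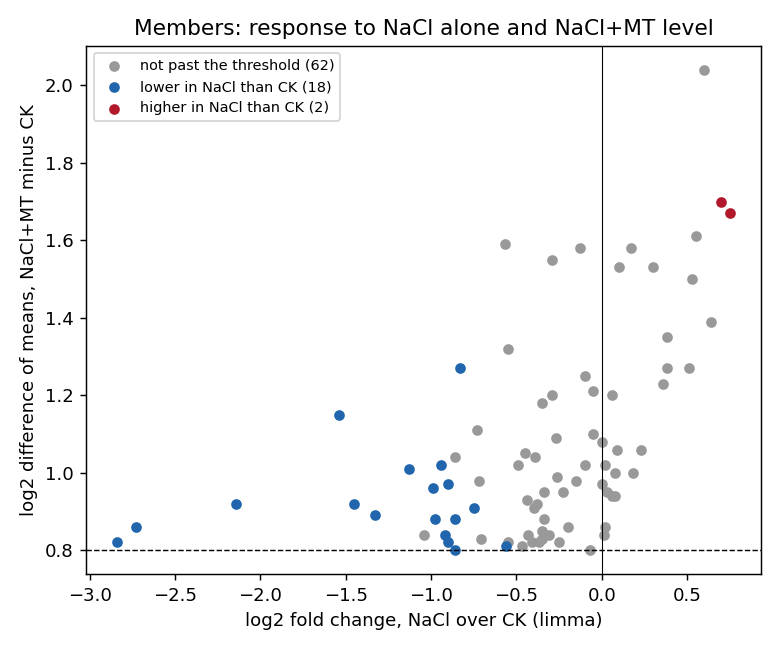
Each point is 1 of the 82 members: the limma log2 fold change of NaCl over CK on the horizontal axis, and the log2 difference of means NaCl+MT minus CK on the vertical axis, with the rule's bound of 0.8 as a dashed line. The 18 members lower in NaCl lie on the left, the 2 higher ones on the right; both axes share the CK libraries, and the rule also empties the lower right corner.

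The spread between replicates was wide in the members. Their median coefficient of variation was 23.6% in NaCl+MT, 35.5% in NaCl and 26.8% in CK, against 12.6%, 20.8% and 15.5% over all tested genes. The rule chose the members on values of these same libraries. The tested genes were not matched to the members for level, here or in the shares below. NaCl+MT replicate 1 was the highest of its group in 46 members (56.1%), against 42.2% of tested genes. It exceeded both other NaCl+MT replicates by over 1.5-fold in 19 members (23.2%), against 5.21% of tested genes. In 10 members (12.2%), mips2 and expB3 among them, both others exceeded replicate 1 by over 1.5-fold, against 5.09% of tested genes. The highest value outside NaCl+MT came from NaCl replicates 1 to 3 in 6, 13 and 9 members, and from CK replicates 1 to 3 in 24, 12 and 18.

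**Figure D4:**
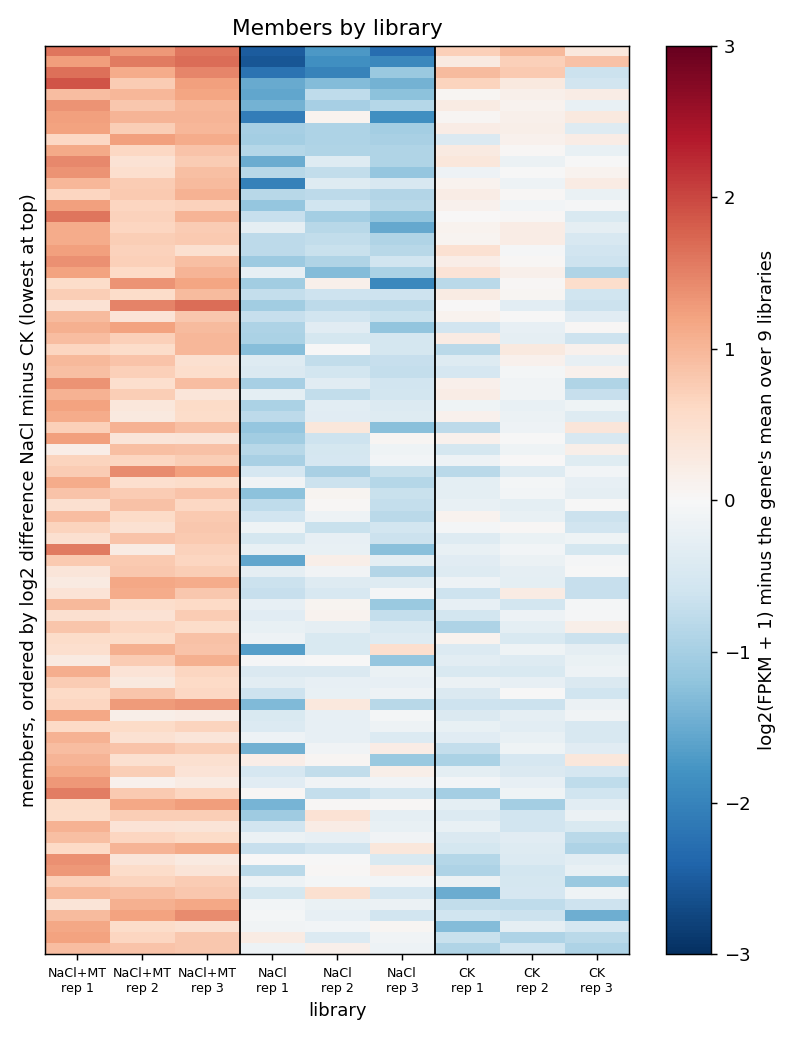
The 82 members (rows, ordered by the log2 difference NaCl minus CK with the lowest at the top) in the 9 libraries (columns), coloured by log2(FPKM + 1) minus the gene's mean over the libraries. The NaCl+MT columns are red in all members, the NaCl columns are darkest blue at the top, and the CK columns are palest at the top and bluer towards the bottom.

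The rule was also applied to 6 libraries at a time and its choice read in the other 3; these choices overlap with the 82 members only in part. Without replicate 1 of each group it chose 98 genes, 49 of them members, and in the 3 left-out libraries NaCl+MT was highest in 79 of them (80.6%), against 30.8% of all tested genes. Without replicate 2 it chose 167 genes, 79 of them members, of which 155 (92.8%) were highest in the left-out NaCl+MT library, against 38.4%. Without replicate 3 it chose 143 genes, 59 of them members, of which 111 (77.6%) were highest, against 28.7%. The size of the difference was less stable: both differences reached 0.8 in the left-out libraries in 35.7%, 18.0% and 21.7% of the chosen genes, against 1.98%, 0.648% and 0.970% of tested genes. The median left-out difference of the chosen genes was 0.72, 0.56 and 0.58 for NaCl+MT minus CK.

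In all, 3 members share their RefSeq gene with a second ID of the table that the rule did not choose. GRMZM2G131723, the second ID beside GRMZM2G131715, had 18.4, 17.3 and 17.3 FPKM in NaCl+MT, 8.94, 11.4 and 14.4 in NaCl, and 10.7, 9.28 and 7.43 in CK. It rose in NaCl+MT over NaCl by 0.59 (SE 0.18, limma adjusted p = 0.0421) and over CK by 0.89 (SE 0.18, limma adjusted p = 0.0484). GRMZM5G820808, beside the member GRMZM5G831887, had 2.18, 2.38 and 2.43 FPKM in NaCl+MT, 1.67, 0.973 and 1.18 in NaCl, and 0.746, 0.930 and 0.784 in CK, with log2 fold changes of 0.56 over NaCl (SE 0.15, limma adjusted p = 0.0276) and 0.87 over CK (SE 0.15, limma adjusted p = 0.0313). GRMZM2G118597, beside GRMZM2G118587, rose over NaCl by 1.00 (SE 0.19, limma adjusted p = 0.00455) but not past the threshold over CK (0.35, SE 0.19, limma adjusted p = 0.346). GRMZM2G118587 itself is a member by the narrowest gap of all, with 5.28 FPKM in its lowest NaCl+MT library and 5.28 in NaCl replicate 3, a ratio of 1.0006. The second IDs come from the same libraries as the members, and if they are parts of 1 gene they are not separate genes. They were read because a member chosen on both contrasts shares their gene. Over all genes, calls between NaCl+MT and CK depended on the settings: 215 in the main fit, 54 without a filter and 72 with a replicate block.

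Many members lack a match in the RefSeq gene table. Exactly 1 RefSeq gene matched 45 members (54.9%), against 67.6% of tested genes, and 10 members (12.2%) carry an ID derived from a clone sequence, such as AC205077.3_FG003, against 3.78% of tested genes. Of the 45 matched members 43 are protein coding and 2 are transcribed pseudogenes. They are spread over 10 chromosomes of the RefSeq assembly, and no 2 of them lie within 10 genes of each other in its gene order.

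The differences run on without a break at the threshold. Just inside it were GRMZM2G339736, GRMZM2G455642 and GRMZM2G071272, whose smaller difference was 0.80, 0.801 and 0.804. Just outside were the lipoxygenase gene lox3 (GRMZM2G109130), GRMZM2G004334 and GRMZM2G392918, with 0.798, 0.797 and 0.796 and no overlap. Another 14 genes reached 0.8 in both differences but had at least 1 NaCl+MT value within the range of the others. The smaller difference was that from CK in 57 members and that from NaCl in 25.

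The same rule with the groups exchanged found 31 genes lowest in NaCl+MT. It found 870 genes highest and 1208 lowest in NaCl, and 173 highest and 318 lowest in CK.

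Apart from expB3 in the cell wall list and both homeobox genes, no member was on any of the 35 name lists, which cover hormones, transcription factors, transport, antioxidants, defence, cell cycle, reserves and photosynthesis. A list can only take in a gene with a gene name, which 5 of the 82 members have, and 37 matched no RefSeq gene. Absence from the lists therefore says little about what the members do. For melatonin synthesis 1 name matched, the caffeic acid O-methyltransferase gene comt (GRMZM5G814904), whose Arabidopsis counterpart can also methylate N-acetylserotonin. It is no member, with 229.6 ± 8.76 FPKM in NaCl+MT, 208 ± 73.1 in NaCl and 135 ± 41.9 in CK (SD, n = 3 each), and passed no threshold in limma.

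Depth and scale differed between libraries. Relative to CK replicate 1, depth was 0.891 to 1.01 in NaCl+MT, 0.537 to 1.25 in NaCl and 1.00 to 1.82 in CK. The median FPKM of all genes was 1.76 to 1.79 in NaCl+MT, 1.46 to 1.49 in NaCl and 1.49 to 1.52 in CK. Tested genes with a mean of 1 to 2 FPKM had a median NaCl+MT minus CK difference of 0.14 and a median NaCl+MT minus NaCl difference of 0.08. At 4 to 8 FPKM, which held the most members (21), these medians were 0.12 and 0.03. At 8 to 16 FPKM they were 0.05 and -0.01, and above 64 FPKM -0.07 and 0.09. NaCl+MT thus leaned above CK at the levels where most members lie, and less so above NaCl. Median-ratio scaling left 54 of the 82 members, and what part this lean has in the membership of the rest was not tested. Endosperm markers were low in all libraries: 6 matched genes, 1 of them at 0 throughout and 2 reaching 1 FPKM, summed to 1.86 to 2.20 FPKM in NaCl+MT, 2.5 to 6.2 in NaCl and 1.63 to 4.82 in CK. The 2 aleurone markers summed to 23.9 to 26.1 FPKM in NaCl+MT, 15.9 to 26.4 in NaCl and 36.3 to 51.7 in CK. The 3 scutellum markers summed to 11.6 to 21.2 FPKM in NaCl+MT, 16.9 to 28.3 in NaCl and 8.90 to 11.6 in CK. The 4 green leaf markers summed to 542 to 887 FPKM in NaCl+MT, 438 to 560 in NaCl and 687 to 1146 in CK, and the 2 root markers summed to 12.5 to 15.1 FPKM in NaCl+MT, 9.90 to 14.8 in NaCl and 11 to 14.3 in CK. CK lay above both other groups in the aleurone markers, and the part of any of these cell types in the members' values was not tested.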

How the data were processed

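Libraries were made from total RNA of seeds with an NEB mRNA-seq kit, per the labels' protocols. The submitters' processing notes name HISAT2, featureCounts, DESeq2 and the genome build B73 RefGen_v3, with no role or version. The authors deposited 1 table of FPKM for 9 libraries, which is the unit of all values here; read counts were not used here. Relative depth was read from the steps between low FPKM values of the same genes, where 82.7% to 91.1% of the values checked came out as whole reads within 0.06 reads.

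FPKM was taken as log2(FPKM + 1), which understates the change of low genes. Genes with at least 1 FPKM in at least 3 libraries (22379) were fitted in 1 limma model (version 3.58.1, R 4.3.3, with trend) of 3 group means over all 9 libraries, 2-sided, with Benjamini-Hochberg adjustment over all tested genes and a threshold of 0.05. The limma fit was run on simulated data with normal noise, for NaCl against CK only. That simulation covered neither the rule nor the contrasts with NaCl+MT. The members and gene lists were chosen with earlier results of these data known. Named are the 5 members of largest smaller difference, the 5 of highest NaCl+MT mean, up to 5 in each direction past the threshold of NaCl against CK, members on a gene list, 3 genes on each side of the rule's threshold, and list neighbours. Gene names came from the RefSeq table of another assembly, where 18387 of 39301 IDs matched 1 gene and 521 several; sequences and coordinates were not used here. The shoot marker sum is not reported here. Alternatives covered the pseudocount, filter, scaling, limma settings, a replicate block and leaving out each library.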

Additional observations from a re-analysis of the deposited data

How the results depend on the processing

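The rule gave 82 genes, against 321 with a pseudocount of 0.1, 153 with 0.5, 141 at a threshold of 0.7 and 28 at a threshold of 1. Median-ratio scaling gave 54, all among the 82, and quantile normalisation gave 54, of which 52 are among the 82. Among those lost after median-ratio scaling were expB3, HDZIV14_OCL14, AD1, EF517601.1_FG016, GRMZM2G114552 and GRMZM2G311165, and 14 of the 21 named members kept both differences; with each library left out 15 to 21 did. Leaving out each library gave 85 to 148, the most without NaCl+MT replicate 2. Members under all of scaling, quantile normalisation, pseudocount 0.1 and every left-out library numbered 29. With only NaCl replicate 2 kept of the NaCl libraries, an alternative chosen after seeing the data, the rule gave 113 genes, 64 of them shared.

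Between NaCl and CK 20 members passed the limma threshold, against 12 at a minimum of 5 FPKM, which tests fewer genes, and 13 to 23 with each library left out. Of the named members 10 passed, against 6 at that minimum and 7 to 10 with each library left out. Over all genes, NaCl against CK gave 5808 calls (3684 at 5 FPKM; 3908 to 6142 with a library left out) and NaCl+MT against NaCl 4164 (2605; 2325 to 4336). NaCl+MT against CK gave 215, against 54 without a filter, 123 at 5 FPKM, 3663 with array weights and 6 to 875 with a library left out; the cause was not tested. Higher calls made up 70.7% of these 215 and 47.7% after median-ratio scaling, which moved the median of all genes to -0.02, against 0.07. The left-out libraries had NaCl+MT highest in 84.6% of chosen genes, against 67.4% with a pseudocount of 0.1. In the 10 named members called between NaCl and CK, that change reversed in none of the limma alternatives. The direction in the other named members, whose changes were not called, is not covered by this.

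Replicate numbers showed no clear pairing of the libraries. Deviations from the group means correlated at -0.368 to 0.145 between same-numbered libraries and at -0.221 to 0.244 between differently numbered ones. With 3 libraries per group, these ranges cannot settle whether the numbers pair. With the number as a replicate block, NaCl+MT against CK gave 72 calls, NaCl+MT against NaCl 3498, NaCl against CK 4934, and 19 members passed between NaCl and CK. Depth is known only in relative terms, so values under 0.2 FPKM carry no counting interval.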
